A study of Saccharomyces cerevisiae with 9 samples.

Results

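The 38 genes described here encode the enzymes, transporters and transcription factors of peroxisomal fatty acid oxidation and the peroxins, the proteins that build and maintain peroxisomes, in the budding yeast Saccharomyces cerevisiae. They were chosen by name. Of the 38 genes, 32 were found by the gene name printed on the array and 6, PEX27 to PEX32, by their systematic name through the R64 annotation, out of 6256 genes on the array. There were 15 genes of oxidation and its control and 23 peroxins. Each gene had 1 probe, and whether the RM11-1a sequence matches that probe was not tested.

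Transcripts of 5 strains were measured on 9 Agilent arrays with 2 colours. YLK806 was RM11-1a carrying the SAL1 allele of the laboratory strains and had 1 array. RM11-1a, derived from a vineyard isolate, had 3 arrays, numbered 7, 9 and 11. YAD350 was the laboratory background BY4742 with a single residue of MKT1 replaced, and YLK804 was the laboratory background BY4724 with the SAL1 allele of RM11-1a, with 1 array each. BY4716, a laboratory strain, had 3 arrays with the same numbers. SAL1 encodes a carrier for adenine nucleotides of mitochondria, and MKT1 encodes a regulator of gene expression at the messenger RNA level. All cultures were in minimal medium whose carbon source was 2% glucose, supplemented with uracil, lysine and leucine, and YAD350 received histidine besides. Every strain, read in Cy5, was hybridised against 1 common pool, read in Cy3, mixing RNA that both parents, RM11-1a and BY4716, made on glucose and on 1% ethanol. The labels do not state whether the replicate arrays stem from independent cultures. Each p-value is thus a measure of array-to-array spread alone, possibly technical.

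Yeast breaks down fatty acids only in the peroxisome, where acyl-CoA oxidase passes electrons to oxygen and the hydrogen peroxide formed is removed by catalase. The genes for these enzymes are known to be repressed on glucose, released on non-fermentable carbon and induced on oleate through the factor pair Oaf1 and Pip2, with Adr1 acting beside them. Peroxins import the enzymes already folded, recycle the import receptors, insert membrane proteins and set the size and number of the organelles.

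On each array 5597 to 5871 genes rose well above background in Cy5, and 5865 genes entered the tests, all 38 among them. All 38 were above background in the reference channel on every array, and 36 were so in the strain channel on every array. POX1 and POT1 were clearly above background in Cy5 on 7 of the 9 arrays, with only 1 of the 3 BY4716 arrays for each. The marker genes followed the strains: HIS3 lay at a log2 ratio of -4.20 in YAD350 and between 0.15 and 0.30 elsewhere. The mating-type gene STE2 lay at 1.37 in YLK804 and between -3.52 and -3.24 in BY4716, so YLK804 and BY4716 differ in mating-type transcripts besides the exchanged allele. YLK804 and YLK806 were scanned on 1 later day with newer scanner software, and 2 BY4716 arrays, 7 and 11, lay on 1 slide.

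Set against the pool, which contains RNA from ethanol-grown cells, the oxidation enzymes stood far lower than the peroxins in every strain on glucose. The 10 enzyme genes had a median log2 ratio of strain over pool of -0.83 for YLK806, -0.79 for RM11-1a, -1.08 for YAD350, -1.31 for YLK804 and -1.11 for BY4716. The 23 peroxins had medians of -0.18, -0.03, -0.07, -0.15 and -0.13 in the same order of strains. These ratios describe the position of each strain relative to the pool and were not tested. In a culture, less RNA per cell and fewer cells that make it cannot be told apart.

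CTA1, which encodes the peroxisomal catalase A, had the lowest ratio of the 38 genes in every strain on this scale, which draws dim genes toward 0. In the scanner software's own ratios, which carry no offset, POT1 lay below it in YAD350, YLK804 and BY4716, and POX1 in YLK804 and BY4716. Its log2 ratio was -2.93 in YLK806, -2.76, -2.56 and -2.69 on RM11-1a arrays 7, 9 and 11, -3.15 in YAD350, -3.52 in YLK804, and -3.06, -2.92 and -2.96 on the BY4716 arrays in the same order. The mean was -2.67 ± 0.10 in RM11-1a and -2.98 ± 0.07 in BY4716 (SD, n = 3 each), and -3.50 and -3.94 in the scanner ratios. POT1, the thiolase that releases acetyl-CoA at the end of each cycle, averaged -1.48 ± 0.19 in RM11-1a and -2.53 ± 0.06 in BY4716 (SD, n = 3 each). FOX2, a single protein with hydratase and dehydrogenase activity, averaged -1.27 ± 0.08 in RM11-1a and -1.80 ± 0.05 in BY4716 (SD, n = 3 each). These distances from the pool were larger than the spread between arrays.

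Of the 38 genes, 28 for YLK806, 21 for RM11-1a, 29 for YAD350, 31 for YLK804 and 31 for BY4716 lay below the pool on every array of the strain. Over all genes the corresponding shares were 50.3%, 41.7%, 49.8%, 49.4% and 44.9%. A mean under -1 was found for 5 genes in RM11-1a and 7 in BY4716, against 3.48% and 5.34% of all genes. In BY4716 the 7 were POX1, FOX2, POT1, SPS19, CTA1, FAA2 and PEX21. PEX21, a co-receptor for the second type of import signal, was the exception among peroxins, with ratios between -1.27 and -0.99 over the 9 arrays. Some oxidation genes were near the pool. DCI1, which encodes a protein related to the isomerase Eci1, had ratios between -0.05 and 0.12, and the factor gene PIP2 had ratios between -0.22 and 0.02.

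**Figure D1:**
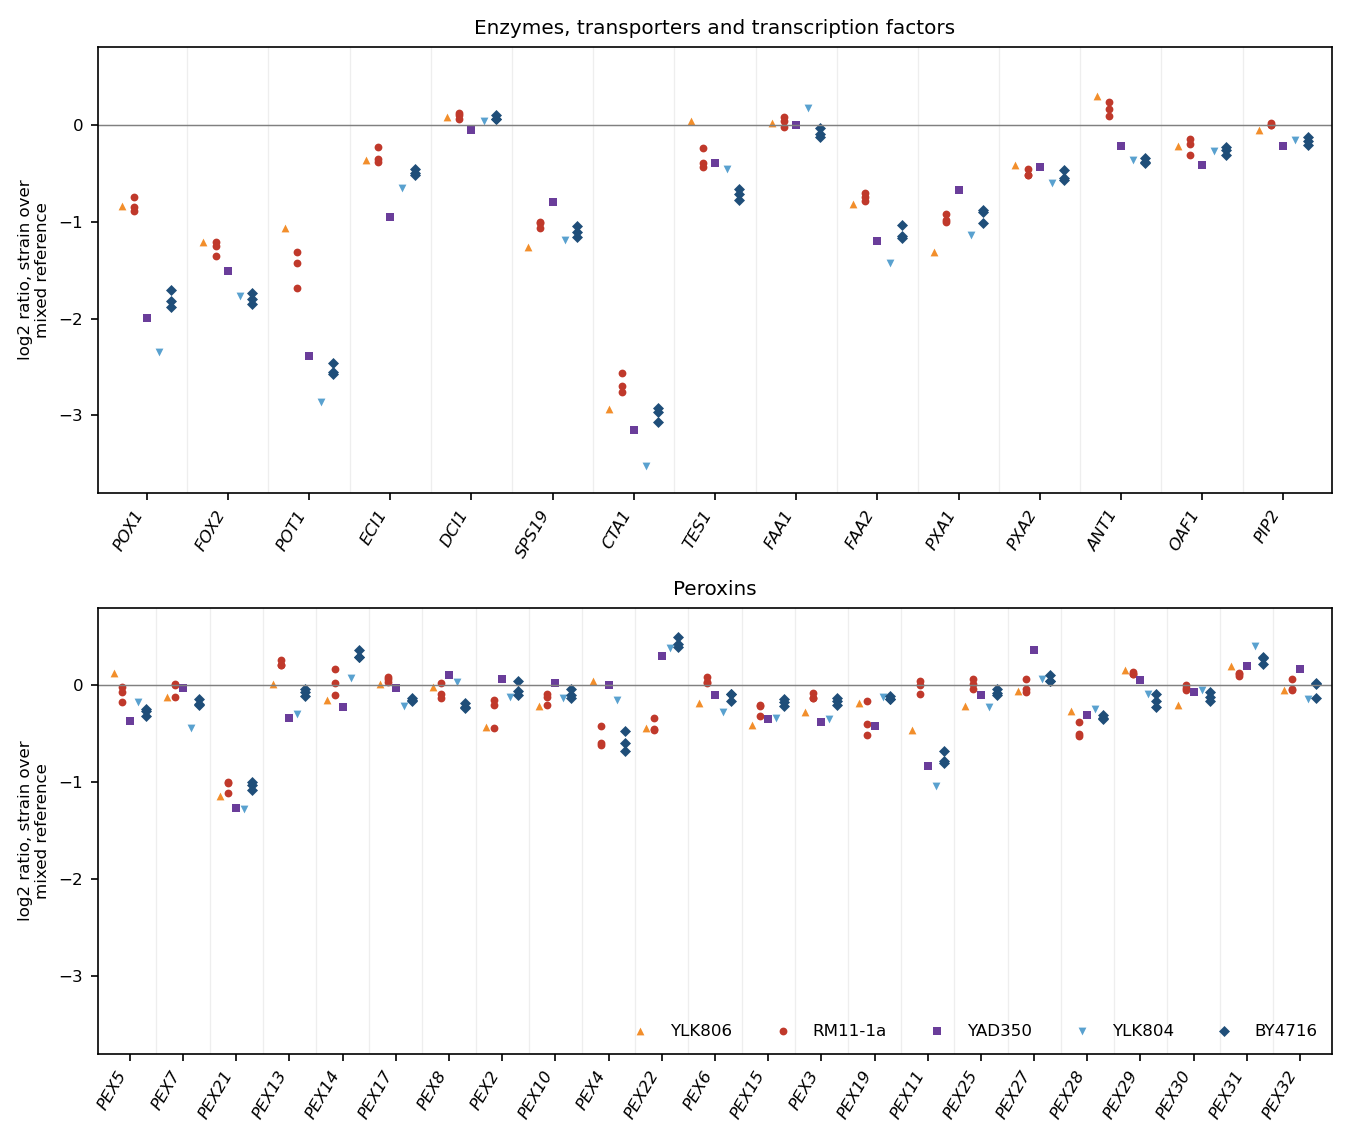
Log2 ratio of strain over the mixed reference for each of the 38 genes, 1 point per array, coloured by strain, with the 15 oxidation genes above and the 23 peroxins below. CTA1 sits lowest in every strain on this scale, PEX21 is the only peroxin near -1 in every strain, and POX1 and POT1 are split into a higher pair (YLK806, RM11-1a) and a lower set (YAD350, YLK804, BY4716).

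The comparison of the parents asks how the vineyard strain differs from the laboratory strain on glucose. The parents also differed in marker genes. STE2 lay between 1.5 and 1.7 in RM11-1a, against -3.5 to -3.2 in BY4716, and URA3 between -2.6 and -2.4, against 1.4. LEU2 lay between -2.8 and -2.7 in RM11-1a, against 1.2 to 1.3 in BY4716, and LYS2 between 0.9 and 1.0, against -3.3 to -3.0. Mating type and marker genes cannot be told apart from the rest of the background here. Of the 10 enzyme genes, 8 were higher in RM11-1a and none lower, and the median log2 difference was 0.34, against 0.0048 over all genes tested. The 23 peroxins were divided, with 8 higher and 6 lower and a median of 0.04. In all, 18 of the 38 were higher, 6 lower and 14 not called at an adjusted p under 0.05 (limma, Benjamini-Hochberg over 5865 genes). Between these strains 63.0% of all genes were called, 33.1% higher and 30.0% lower, so the share of the 38 that changed was close to that of any genes, and the peroxins' division was as well. The 6 genes outside the array names are included. Among the 32 found by name, 17 were higher and 4 lower.

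The core of the cycle was higher in RM11-1a. POX1, the acyl-CoA oxidase that opens it, had log2 ratios of -0.89, -0.74 and -0.85 on RM11-1a arrays 7, 9 and 11, against -1.88, -1.71 and -1.82 on BY4716 arrays 7, 9 and 11. Every RM11-1a array lay above every BY4716 array. The log2 difference was 0.97 ± 0.06 (SE), 1.96-fold, with an adjusted p of 7.04e-06 (limma). POT1 had ratios of -1.68, -1.32 and -1.43 in RM11-1a, against -2.55, -2.46 and -2.57 in BY4716, again without overlap. Its difference was 1.05 ± 0.09 (SE), 2.07-fold, with an adjusted p of 3.94e-05 (limma). Both probes were well above background on only 1 of 3 BY4716 arrays, and in the scanner software's own ratios the differences were 3.04 for POX1 and 3.02 for POT1. The direction was the same on both scales, and the size was not. FOX2 had ratios of -1.36, -1.25 and -1.21 in RM11-1a, against -1.85, -1.74 and -1.80 in BY4716. No array of one strain reached the other, and the difference was 0.53 ± 0.05 (SE), with an adjusted p of 7.90e-05 (limma).

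Around this core, 5 more enzymes were called. FAA2, the acyl-CoA synthetase of medium-chain fatty acids inside peroxisomes, had ratios of -0.75, -0.71 and -0.79 in RM11-1a, against -1.17, -1.03 and -1.15 in BY4716. The ranges were apart, with a difference of 0.37 ± 0.05 (SE) and an adjusted p of 0.000320 (limma). It was 0.83 in the scanner ratios, above the 0.70 of FOX2 there. TES1, a thioesterase that splits acyl-CoA, had -0.40, -0.24 and -0.43 in RM11-1a, against -0.66, -0.77 and -0.71 in BY4716. Its difference was 0.36 ± 0.06 (SE), adjusted p 0.00121 (limma), and 0.60 in the scanner ratios. CTA1, whose ratios are given above, was higher in RM11-1a by 0.31 ± 0.06 (SE), adjusted p 0.00275 (limma). With arrays scaled to 1 common spread the CTA1 difference was 0.05 and was not called. ECI1, the isomerase needed for unsaturated fatty acids, had -0.38, -0.36 and -0.23 in RM11-1a, against -0.52, -0.46 and -0.50 in BY4716. It differed by 0.17 ± 0.05 (SE), adjusted p 0.0170 (limma). FAA1, the main synthetase for imported long-chain fatty acids, had -0.03, 0.03 and 0.08 in RM11-1a, against -0.04, -0.09 and -0.12 in BY4716, and the strains nearly touched. It differed by 0.11 ± 0.04 (SE), adjusted p 0.0492 (limma), and was called under 4 of 20 other settings.

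Not all auxiliary enzymes took part. SPS19, the dienoyl-CoA reductase, had an interval of the difference from -0.02 to 0.17, and DCI1 had one from -0.06 to 0.10. Both straddled 0, so no difference was detectable between the parents.

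The transporters behaved unequally. ANT1, the peroxisomal carrier that brings in ATP for acyl-CoA synthesis, had ratios of 0.23, 0.16 and 0.09 in RM11-1a, against -0.39, -0.39 and -0.35 in BY4716. The RM11-1a arrays stood above the pool and the BY4716 arrays below it. The difference was 0.54 ± 0.04 (SE), 1.45-fold, with an adjusted p of 3.80e-05 (limma). PXA1 and PXA2, which together encode the ABC transporter for long-chain acyl-CoA, had intervals from -0.15 to 0.07 and from -0.06 to 0.13 and were not called. In the scanner software's own ratios PXA1 was called lower in RM11-1a, with means of -2.06 in RM11-1a and -1.80 in BY4716.

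Of the factor pair, PIP2 had ratios of -0.00, 0.02 and -0.01 in RM11-1a, against -0.21, -0.17 and -0.13 in BY4716. It was higher by 0.17 ± 0.04 (SE), adjusted p 0.00357 (limma), with no overlap between arrays. OAF1 differed by 0.05 ± 0.05 (SE), with an interval from -0.07 to 0.16, and was not called. The other regulators of the pathway listed beside the 38 moved in both directions, with 5 of 7 higher and 2 lower. ADR1, the activator of ethanol and peroxisomal genes, was higher by 1.73 ± 0.05 (SE), and CAT8, an activator of gluconeogenic genes, by 0.80 ± 0.09 (SE). REG1, a regulatory subunit of the phosphatase acting in glucose repression, was lower, at -0.18 ± 0.04 (SE). OAF3, a repressor of oleate-responsive genes, was lower too, at -0.13 ± 0.04 (SE).

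Among the import peroxins 5 of 7 were higher and 1 lower. PEX13, a docking protein, had ratios of 0.21, 0.20 and 0.26 in RM11-1a, against -0.04, -0.12 and -0.07 in BY4716. Its difference was 0.30 ± 0.04 (SE), adjusted p 0.000266 (limma). Its docking partner PEX17 was higher by 0.21 ± 0.03 (SE), with 0.09, 0.03 and 0.07 in RM11-1a, against -0.13, -0.16 and -0.15 in BY4716, and by 0.65 in the scanner ratios. The third docking protein, PEX14, ran the other way. It had 0.02, -0.10 and 0.17 in RM11-1a, against 0.36, 0.29 and 0.29 in BY4716, a difference of -0.28 ± 0.07 (SE), adjusted p 0.00761 (limma). PEX5, the receptor for most enzymes of the matrix, had -0.07, -0.17 and -0.02 in RM11-1a, against -0.32, -0.25 and -0.27 in BY4716, higher by 0.19 ± 0.05 (SE). PEX7, the receptor that carries cargo such as the thiolase, had 0.00, 0.01 and -0.12 in RM11-1a, against -0.19, -0.14 and -0.20 in BY4716, higher by 0.14 ± 0.05 (SE). It was not called in the scanner ratios. The bridging protein PEX8 had -0.09, 0.02 and -0.13 in RM11-1a, against -0.24, -0.18 and -0.22 in BY4716, higher by 0.15 ± 0.05 (SE). No array of one strain reached the range of the other in any of these 3 genes.

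PEX22 was the largest fall among the 38. It encodes the membrane anchor of Pex4, the enzyme that conjugates ubiquitin to the import receptors so that they leave the membrane. The ratios were -0.45, -0.47 and -0.34 in RM11-1a, against 0.50, 0.43 and 0.40 in BY4716. The strains lay on opposite sides of the pool. The difference was -0.86 ± 0.05 (SE), a level 1.82-fold lower in RM11-1a, with an adjusted p of 4.66e-06 (limma). In the R64 annotation PEX22 lies on chromosome I from 42177 to 42719, and OAF1 lies on the same chromosome from 48564 to 51707. Its enzyme partner PEX4 was not called, at 0.04 ± 0.07 (SE).

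The other receptor-export genes split. PEX6, an ATPase that pulls receptors out of the membrane, had 0.04, 0.09 and 0.02 in RM11-1a, against -0.17, -0.09 and -0.09 in BY4716, higher by 0.16 ± 0.04 (SE). The ubiquitin ligase PEX2 had -0.16, -0.20 and -0.45 in RM11-1a, against 0.05, -0.10 and -0.06 in BY4716, lower at -0.23 ± 0.08 (SE), with RM11-1a array 11 well below the other two. PEX10 and PEX15 were not called. Of the pair that inserts membrane proteins, PEX19 was lower, at -0.23 ± 0.08 (SE), and PEX3 was not called. The PEX19 ratios were -0.40, -0.51 and -0.16 in RM11-1a, against -0.14, -0.11 and -0.14 in BY4716, so RM11-1a array 11 lay close to the BY4716 arrays.

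PEX11, which drives the elongation and division of peroxisomes, changed most among the proliferation genes. It had ratios of 0.01, 0.04 and -0.09 in RM11-1a, against -0.80, -0.68 and -0.78 in BY4716. RM11-1a was at the level of the pool and BY4716 well below it. The difference was 0.74 ± 0.05 (SE), 1.67-fold, adjusted p 1.40e-05 (limma). PEX29, a membrane protein that limits peroxisome number, had 0.13, 0.12 and 0.12 in RM11-1a, against -0.17, -0.09 and -0.22 in BY4716, higher by 0.28 ± 0.04 (SE). Its relative PEX28 had -0.50, -0.38 and -0.52 in RM11-1a, against -0.30, -0.34 and -0.34 in BY4716, lower at -0.14 ± 0.05 (SE). PEX31 had 0.12, 0.12 and 0.10 in RM11-1a, against 0.28, 0.22 and 0.29 in BY4716, lower at -0.15 ± 0.03 (SE). In the scanner ratios the differences were -0.31 for PEX28 and -0.30 for PEX31. PEX25, PEX27, PEX30 and PEX32 were not called.

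**Figure D2:**
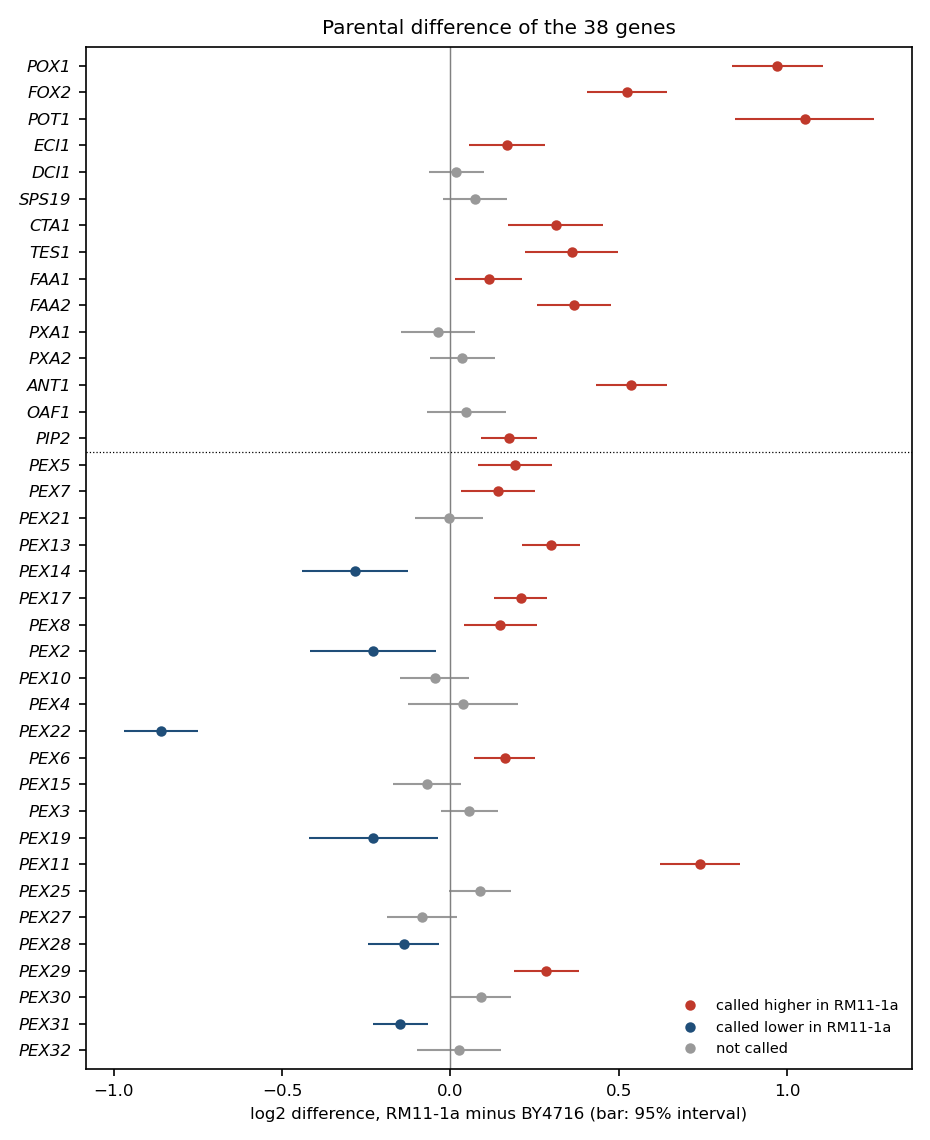
Log2 difference of RM11-1a minus BY4716 for each of the 38 genes with its 95% interval (3 arrays each), oxidation genes above the dotted line and peroxins below it. No oxidation gene is called lower on this scale, although PXA1 is in the scanner software's ratios. Peroxins are called on both sides of 0, with PEX22 at -0.86 and PEX11 at 0.74.

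The arrays of the parents did not overlap for 27 of the 38, against 70.3% of all genes. In the 1 pair of parental arrays scanned on the same day, RM11-1a 9 and BY4716 9, the difference was 0.96 for POX1, 1.14 for POT1, 0.49 for FOX2, 0.55 for ANT1, 0.72 for PEX11 and -0.89 for PEX22. Scan day as a fixed block leaves the comparison to that pair, and some calls were lost. The residual spread of each gene there came only from BY4716 arrays 7 and 11, which share a scan day and a slide. Calls made, kept or lost in that setting are thus weakly founded. For the genes that lost their call the differences there were 0.10 for ECI1, 0.13 for FAA1, 0.08 for PEX5, -0.10 for PEX2, -0.04 for PEX28 and -0.10 for PEX31. PEX27, at -0.18, and PEX32, at 0.19, were called in that setting. Across 20 other settings, 14 of the 24 calls were kept in every one that gave a value. They were 7 of the 10 oxidation genes called and 7 of the 14 peroxins called. In the comparisons below the corresponding counts were 10 of 16 for YLK806 against YLK804, 9 of 14 for YAD350, 0 of 10 for YLK804, 4 of 9 for YLK806 against RM11-1a and 8 of 20 for the contrast of SAL1 effects. Single arrays ended the calls of 7 genes, with adjusted p-values from limma given for each. ECI1 lost it without BY4716 array 7 (0.0635) or 11 (0.0540), and PEX8 without BY4716 array 7 (0.0873) or 11 (0.0753) or RM11-1a array 9 (0.0533). PEX7 lost it without BY4716 array 7 (0.0901) or 11 (0.0995) or RM11-1a array 7 (0.0822) or 9 (0.0810). PEX2 lost it without any BY4716 array (0.0533 to 0.122) or without RM11-1a array 11 (0.0574), and without the last its difference was -0.14. PEX19 lost it without any BY4716 array (0.0901 to 0.107) or RM11-1a array 7 (0.0848) or 9 (0.101), and without the last its difference was -0.15. PEX28 lost it without any BY4716 array (0.0592 to 0.0968) or RM11-1a array 7 (0.0774) or 11 (0.0772). FAA1 lost it without any single array other than RM11-1a array 7 (0.0530 to 0.158).

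Related genes listed beside the 38 did not all follow. Of 11 other peroxisomal enzymes 6 were higher and 4 lower. PNC1, a nicotinamidase that is carried into peroxisomes, was higher by 0.87 ± 0.08 (SE) and MLS1, a malate synthase, by 0.57 ± 0.15 (SE). CIT2, the citrate synthase of the glyoxylate cycle, was lower, with a difference of -0.81 ± 0.06 (SE), and PCS60, of the acyl-CoA synthetase family, at -0.59 ± 0.09 (SE). Of the 4 genes of the carnitine shuttle, which exports acetyl units, 3 were higher and 1 lower, with YAT1 at 0.53 ± 0.08 and YAT2 at -0.29 ± 0.05 (SE). In the list of fatty acid synthesis 7 of 13 were higher and 5 lower. The desaturase gene OLE1 was higher by 0.67 ± 0.07 (SE), and FAA3, another acyl-CoA synthetase, was at -0.78 ± 0.06 (SE). Of 10 genes in a list named for ethanol, 7 were higher and none lower. Their median was 0.47. The largest difference was that of CYB2, a lactate dehydrogenase and not an enzyme of ethanol use, at 2.33 ± 0.17 (SE). Its mean ratio in RM11-1a was 0.34, whereas 9 of the 10 had a mean under -1 there. Of 8 peroxins outside the 38, 2 were higher and 2 lower.

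YLK806 and YLK804 gave another contrast of vineyard and laboratory backgrounds on other arrays, both scanned on 1 day. It is not the contrast of the parents, since YLK804 was made in BY4724 and not in BY4716. The parents differed in STE2 and URA3. YLK806 and YLK804 were alike in STE2, at 1.52 and 1.37, and both low in URA3, at -3.04 and -3.47. They differed, as the parents do, in LEU2, at -3.53 in YLK806 and 1.14 in YLK804, and in LYS2, at 1.00 and -3.84. They also differ in SAL1, each carrying the other background's allele. Of the 38 genes 14 were higher in YLK806 and 2 lower, against 41.0% called over all genes, with 22.1% higher and 18.9% lower. The enzyme median was 0.53, the peroxin median 0.0094 and the median over all genes -0.0039. With 1 array a strain, the spread was borrowed from the parental arrays.

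All 16 of these calls had also been made in the same direction between RM11-1a and BY4716, which share no array with them. The 16 are 100% of the calls between YLK806 and YLK804 and 66.7% of the 24 between the parents. Over all genes tested, the overlap in the same direction was 93.5% and 60.9%, so the shares of the 38 lay near those of any genes. Of the 10 oxidation genes called between the parents, 8 were called again, and of the 14 peroxins 8 were.

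POX1 and POT1 again had the largest differences. POX1 was at -0.84 in YLK806 and -2.35 in YLK804, a difference of 1.51 ± 0.10 (SE), adjusted p 3.96e-05 (limma). POT1 was at -1.06 in YLK806 and -2.86 in YLK804, a difference of 1.79 ± 0.15 (SE), adjusted p 0.000134 (limma). In YLK806 POX1 lay within the range of the RM11-1a arrays and POT1 above it, and in YLK804 both lay below all 3 BY4716 arrays. In the scanner ratios the differences were 3.26 for POX1 and 3.77 for POT1, and POT1 in YLK804, at -5.06, lay inside the BY4716 range from -5.19 to -4.99. FOX2 was at -1.21 in YLK806 and -1.77 in YLK804, a difference of 0.56 ± 0.09 (SE). FAA2 was at -0.82 in YLK806 and -1.43 in YLK804, and the difference was 0.60 ± 0.08 (SE). The thioesterase gene TES1 was higher by 0.49 ± 0.10 (SE) and the isomerase gene ECI1 by 0.29 ± 0.08 (SE).

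For CTA1 the difference was 0.59 ± 0.10 (SE), with -2.93 in YLK806 and -3.52 in YLK804, but it was -0.02 when arrays were scaled to 1 common spread. ANT1 was at 0.29 in YLK806 and -0.36 in YLK804, a difference of 0.66 ± 0.08 (SE). In that case the strain channel differed by 0.05 and the reference channel by -0.61, although both arrays carried the pool in Cy3. Among the 16 called genes the reference channel differed more than the strain channel in 5, and between the parents in none of 24. The corresponding shares of all genes were not counted.

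Of the peroxins, PEX22 was lower in YLK806, at -0.44, than in YLK804, at 0.38, a difference of -0.82 ± 0.08 (SE). PEX31 was the other gene lower, at -0.21 ± 0.06 (SE). PEX11 was at -0.46 in YLK806 and -1.04 in YLK804, higher by 0.58 ± 0.09 (SE). The import genes PEX5, PEX7, PEX13 and PEX17 were higher by between 0.23 and 0.32, and PEX29 by 0.25 ± 0.07 (SE). In the scanner ratios PEX17 differed by 0.08, and PEX17, PEX5, PEX29 and ECI1 were not called. PEX14, which had been lower in RM11-1a than in BY4716, differed by -0.23 ± 0.10 (SE) here and was not called. PIP2 differed by 0.11 ± 0.06 (SE) and OAF1 by 0.04 ± 0.09 (SE), neither of them called. Through the shared spread, the ECI1 call was lost without BY4716 array 11, that of PEX29 without array 7 and that of PEX31 without either.

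Genes far below the pool in BY4716 as a whole moved this way. Of 316 genes with a BY4716 mean under -1, over the arrays that measured them, 240 were higher in YLK806 than in YLK804 and 13 lower, which is 75.9% higher. Of the 7 among the 38 with such a mean, 5 were higher and none lower, which is 71.4%. This grouping was chosen after the values were seen. BY4716 is in neither arm of the contrast, but it is a laboratory strain like YLK804, and r between them was 0.879. Genes picked for low ratios in BY4716 thus tend to be low in YLK804 too. The lean toward YLK806 is therefore partly set by the choice of genes and is not separate evidence.

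**Figure D3:**
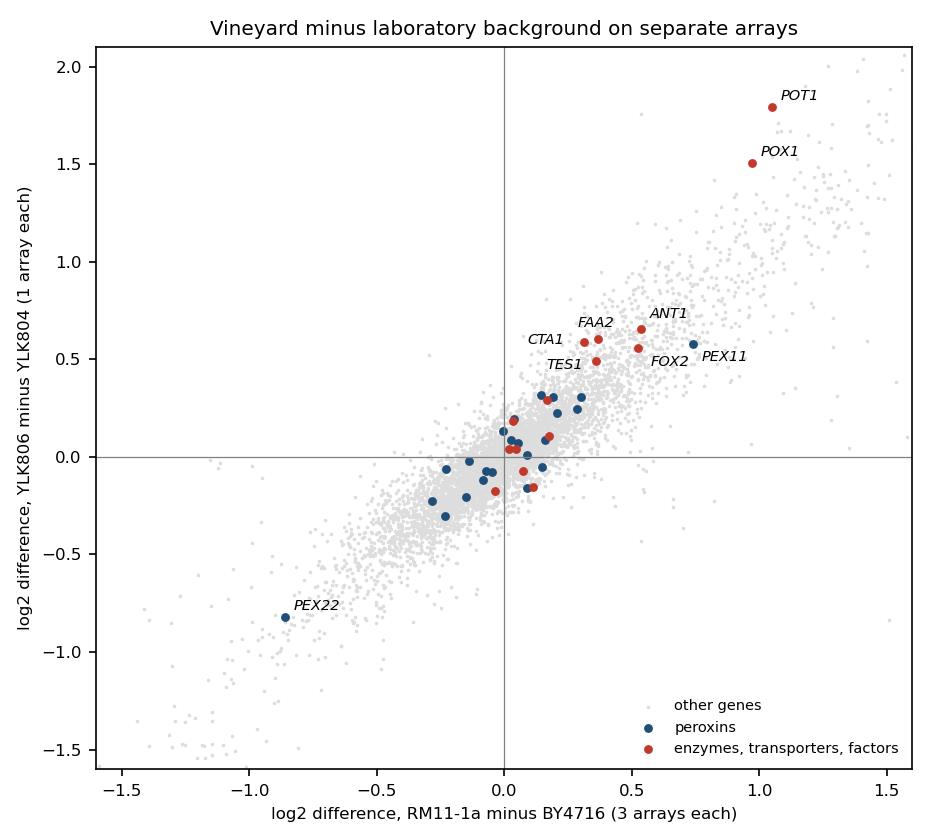
Log2 difference of YLK806 minus YLK804 (1 array each) against that of RM11-1a minus BY4716 (3 arrays each), with peroxins in blue, the other 15 genes in red and all other tested genes in grey; genes beyond the axes are not drawn. POX1 and POT1 lie above 1.5 on the vertical axis and near 1 on the horizontal one, PEX22 lies near -0.8 on both, and most peroxins lie near 0.

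The 3 exchange strains were then set against the parental strain of the same kind of background, RM11-1a for YLK806 and BY4716 for YAD350 and YLK804, which asks what the exchanged allele changes. BY4716 is another laboratory strain than BY4742 and BY4724, in which YAD350 and YLK804 were made. URA3 lay at -2.89 in YAD350 and -3.47 in YLK804, against 1.40, 1.38 and 1.35 in BY4716, and LEU2 at -3.16 in YAD350, against 1.23, 1.31 and 1.18 in BY4716. The allele is thus not the only difference of YAD350 and YLK804 from BY4716. Each has 1 array and borrows its spread from the parental arrays. All 3 were scanned on days without a parental array, so scan day and strain cannot be told apart in these comparisons. Of the 38 genes 15 were called in none of the 3 comparisons, 15 in 1, 6 in 2 and 2 in all 3. How all genes divide in this way was not counted, so these numbers cannot be set against those of any genes. The share of all genes called in each comparison is given below.

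PEX4 was higher in all 3 exchange strains than in the parental strain each was set against. Its ratio was 0.04 in YLK806, against -0.61, -0.42 and -0.60 in RM11-1a. It was 0.01 for YAD350 and -0.15 for YLK804, against -0.59, -0.47 and -0.68 on the BY4716 arrays. No exchange array reached the range of the 6 parental arrays, from -0.68 to -0.42. Such a separation was not particular to PEX4. For PEX21, PEX15, PEX3 and PEX25 all 3 exchange arrays lay below all 6 parental arrays, and the share over all genes was not counted. The PEX4 difference from the parental strain was 0.58 ± 0.10 (SE) in YLK806, 0.59 ± 0.10 (SE) in YAD350 and 0.43 ± 0.10 (SE) in YLK804. Adjusted p-values were 0.00918, 0.00283 and 0.0237 (limma), and the scanner differences were 0.94, 0.93 and 0.74. The YAD350 and YLK804 comparisons share the BY4716 arrays. In YLK804 the call was lost without BY4716 array 7 or 11. The strain channel carried most of these differences, by 0.69 in YLK806, 0.69 in YAD350 and 0.51 in YLK804, and the reference channel changed by 0.11, 0.10 and 0.09. PEX13, the other gene called in all 3, was lower in each, with differences of -0.22 ± 0.05, -0.26 ± 0.05 and -0.22 ± 0.05 (SE) in the same order. In YAD350 and YLK804 its reference channel changed more than its strain channel.

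In YAD350, 14 of the 38 differed from BY4716, 8 higher and 6 lower, against 47.0% called over all genes, 26.5% higher and 20.5% lower. ECI1 was the enzyme that fell. It was at -0.95 in YAD350, against -0.52, -0.46 and -0.50 in BY4716, a difference of -0.46 ± 0.07 (SE), adjusted p 0.00179 (limma). The array lay clear of all 3 BY4716 arrays, and the call held under all 17 other settings. SPS19, which also serves unsaturated fatty acids, was at -0.79 in YAD350, against -1.16, -1.05 and -1.11 in BY4716, higher by 0.31 ± 0.06 (SE). FOX2 was higher by 0.29 ± 0.07, TES1 by 0.32 ± 0.08 and PXA1 by 0.26 ± 0.07 (SE). Without the offset these differences, from the scanner software, were 0.65 for SPS19, 0.57 for TES1 and 0.70 for PXA1. POX1, POT1 and CTA1, the genes farthest below the pool, were not called.

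Among the peroxins of YAD350, the docking gene PEX14 was at -0.23, against 0.36, 0.29 and 0.29 in BY4716, a difference of -0.54 ± 0.10 (SE). PEX8 and PEX27 were higher by 0.32 ± 0.07 and 0.29 ± 0.06 (SE), and PEX29 by 0.21 ± 0.06 (SE). In the scanner ratios PEX27 differed by 0.55 and PEX29 was not called. The PEX29 call was lost without BY4716 array 7 or 11, that of PEX21 without array 11 and that of PEX15 without any one of the 3 or RM11-1a array 9. PEX21, PEX15 and PEX3 were lower, between -0.23 and -0.17 (-0.28 for PEX15 in the scanner ratios), and for all 3 of them, as for PEX13, the reference channel changed more than the strain channel. YAD350 also had far less HIS3 signal than BY4716, at log2 ratios of -4.20 against 0.30, 0.28 and 0.26, and it received histidine.

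In YLK804, 10 of the 38 differed from BY4716, 3 higher and 7 lower, against 21.1% over all genes, 10.9% higher and 10.2% lower. The enzymes called lower, POX1, CTA1 and FAA2, were among those with a BY4716 mean under -1. POX1 was at -2.35 in YLK804, against -1.88, -1.71 and -1.82 in BY4716, a difference of -0.55 ± 0.08 (SE), adjusted p 0.00618 (limma). CTA1 was at -3.52 in YLK804, against -3.06, -2.92 and -2.96 in BY4716, a difference of -0.54 ± 0.09 (SE), adjusted p 0.00748 (limma). FAA2 differed by -0.31 ± 0.07 (SE). In all 3 the array lay below every BY4716 array. The log2 level of FAA2 in the strain channel, 6.36, lay within the BY4716 range from 6.27 to 6.38. In the reference channel it was 7.79, above the 7.41 to 7.46 of the BY4716 arrays. The size and, for FAA2, the direction did not hold in the scanner software's ratios, where the differences were -0.08, -0.36 and 0.02. On that scale 8 of the 10 calls were lost, all but those of PEX4 and PEX13. FAA1 was higher by 0.26 ± 0.06 (SE), as was PEX8 by 0.24 ± 0.07 (SE). PEX11, PEX7, PEX21 and PEX13 were lower, between -0.29 and -0.22. For PEX8 and PEX7 the strain channel ran against the call. The PEX8 strain level was 7.08, below the BY4716 range from 7.26 to 7.40, and that of PEX7 was 7.97, above the range from 7.77 to 7.84. For 6 of the 10 genes the reference channel changed more than the strain channel, a share not counted over all genes. The number called fell to between 3 and 5 when any 1 BY4716 array was left out. The calls of PEX11, PEX21, PEX7 and PEX8 were lost without any one of these arrays, that of PEX13 without array 7 or 11 and that of FAA1 without array 9 or 11.

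In YLK806, 9 of the 38 differed from RM11-1a, 2 higher and 7 lower, against 22.4% over all genes, 10.8% higher and 11.6% lower. TES1 was at 0.04 in YLK806, against -0.40, -0.24 and -0.43 in RM11-1a, higher by 0.39 ± 0.08 (SE), adjusted p 0.0185 (limma), and by 0.60 in the scanner ratios. PEX11 was at -0.46 in YLK806, against 0.01, 0.04 and -0.09 in RM11-1a, a difference of -0.45 ± 0.07 (SE), adjusted p 0.00790 (limma). Its strain channel differed by -0.04 and its reference channel by 0.41. PXA1 was at -1.32, against -0.93, -1.01 and -0.98 in RM11-1a, a difference of -0.35 ± 0.07 (SE), again with the reference channel changing by 0.32 and the strain channel by -0.02. PXA1 and PEX30 were not called in the scanner ratios. SPS19, PEX6, PEX13, PEX25 and PEX30 were lower, between -0.24 and -0.18. POX1 differed by -0.01 ± 0.08 (SE), with an interval from -0.20 to 0.18, and was not called. Without BY4716 array 11, which enters only through the shared spread, 5 genes were called, and the calls of SPS19, PEX13, PEX25 and PEX30 were lost. The PEX30 call was also lost without any other single parental array, that of PEX25 without BY4716 array 7 or RM11-1a array 7, and that of SPS19 without RM11-1a array 7.

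Whether the RM11-1a allele of SAL1 acted alike in both backgrounds was tested as YLK804 minus BY4716, less RM11-1a minus YLK806. Of the 38 genes 6 were higher and 14 lower in this contrast, against 38.7% called over all genes, 18.7% higher and 20.0% lower. PEX4 stood at 1.01 ± 0.14 (SE), CTA1 at -0.80 ± 0.12 (SE) and PEX11 at -0.74 ± 0.10 (SE). In the scanner ratios PEX4 was at 1.69 and CTA1 at -0.37, and 8 of the 20 calls were lost, those of POX1, SPS19, CTA1, FAA2, PXA1, PEX5, PEX8 and PEX31. The calls of PEX14, PEX28, PEX31 and PEX8 were lost without any one BY4716 array, and that of PEX5 without BY4716 array 7 or 11. PEX28 and PEX8 also lost theirs without RM11-1a array 7 or 11, and PEX31 without RM11-1a array 7. YLK804 also differs from BY4716 in URA3 and STE2, and RM11-1a and YLK806 were both low in URA3 and both high in STE2. Both exchange arrays enter the contrast with the same sign, so a shift shared by these arrays cannot be told apart from a difference between backgrounds.

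**Figure D4:**
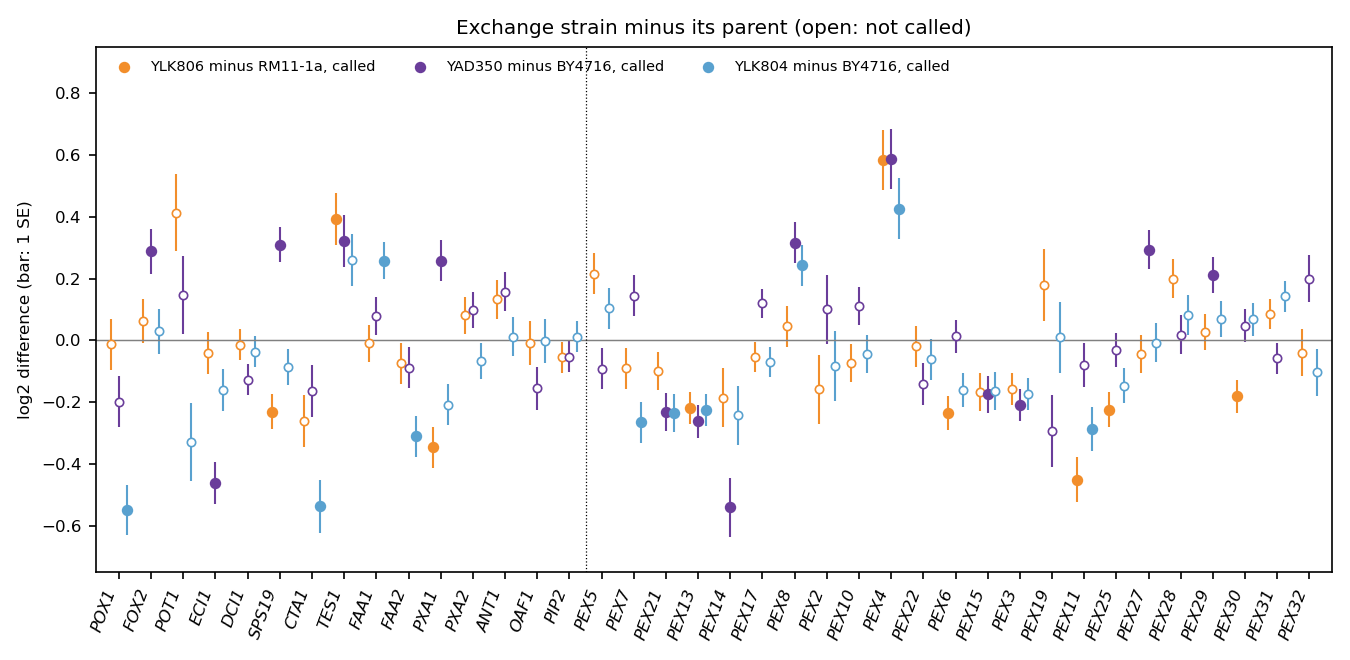
Log2 difference of each exchange strain from the parental strain it was set against for the 38 genes, with bars of 1 SE, filled where called and open where not; oxidation genes are left of the dotted line. PEX4 is raised in all 3 strains by 0.43 to 0.59, PEX13 is lowered in all 3, and ECI1 and PEX14 are lowered in YAD350 by 0.46 and 0.54.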

How the data were processed

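The deposited scanner files hold spot intensity in 2 channels with local backgrounds, read with Agilent Feature Extraction 8.5.1.1 (7 arrays) or 9.1.3.1 (2 arrays), per the file headers. The software's deposited log10 ratios (Cy5 over Cy3) are in the same files. The authors' deposited series table has log2 ratios equal to these within 0.0005, with column medians between 0 and 0.008. Intensities were corrected with normexp (offset 50) and normalized by loess within arrays in limma 3.58.1 under R 4.3.3. The offset draws ratios of dim genes toward 0. Control spots and spots with outlier flags (5 to 140 per array) were left out, saturated spots kept, and spots of a gene averaged. Genes were kept if either dye exceeded background clearly on 3 or more of the 9 arrays. Median strain signals lay between 237 and 424, median reference signals between 179 and 272 and median backgrounds between 21 and 32. Precision is limited by the number of arrays.

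One model with 5 groups was fitted to the 9 arrays with lmFit and eBayes (4 residual degrees of freedom), with calls at a Benjamini-Hochberg adjusted p below 0.05. All p-values are two-sided. Strains with 1 array were taken to vary like the parents. The fit was tested on simulated data. The labels of the 3 exchange arrays disagree on the dye. They were read as strain in Cy5 unless r with the parent was under -0.3, and r was 0.807 for YAD350, 0.879 for YLK804 and 0.886 for YLK806. All 38 genes were named, with values per array for genes called between the parents and for the larger differences elsewhere, and beside them up to 2 rises and 2 falls of each related list. These genes and lists were chosen with earlier results of these data known. Of the systematic names 5756 matched the R64 table. Same-numbered parental arrays deviated together with r of -0.21, 0.13 and -0.17, and arrays of unlike number with r from -0.23 to 0.33. With 3 arrays a strain these values cannot show whether the numbers pair the arrays, and the labels do not say what the numbers mark. Other settings tried were the background correction, the scaling, the filter, ratios as deposited, an intensity trend, blocks by scan day or replicate number, leaving out arrays and, added after the data were seen, averaging the 2 arrays of 1 slide.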

Additional observations from a re-analysis of the deposited data

Results flagged for a closer look

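The SAL1 exchange was made in both backgrounds, and for 20 of the 38 genes YLK804 minus BY4716 differed from RM11-1a minus YLK806 by limma's test of the difference itself (38.7% of all genes). YLK804 also differs from BY4716 in URA3 and in the mating-type gene STE2, so the contrast does not measure the allele alone. YLK804 and YLK806 enter it with the same sign, so any shift shared by these 2 arrays, which were scanned on 1 day with newer software, cannot be told apart from a difference between backgrounds. For 15 of the 20 the reference channel changed more than the strain channel. How often this holds over all genes was not counted, so it cannot be read as a trait of these genes.

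The 6 higher were PEX4 (1.01), TES1 (0.65), PEX5 (0.32), PEX8 (0.29), PEX28 (0.28) and PEX31 (0.23). The lower enzymes and transporter were CTA1 (-0.80), POX1 (-0.56), PXA1 (-0.55), FAA2 (-0.38) and SPS19 (-0.32). The lower peroxins were PEX11 (-0.74), PEX13 (-0.44), PEX14 (-0.43), PEX6 (-0.40), PEX25 (-0.37), PEX7 (-0.36), PEX21 (-0.34), PEX15 (-0.33) and PEX3 (-0.33). All are log2 values, with SE between 0.07 and 0.14.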

How the results depend on the processing

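The parental count of 24 called genes lay between 17 and 22 with any 1 array left out, and was 21 with the replicate number as a block, which pairs arrays only by number. The block changed no other call than those 3, and no paired analysis was possible for the strains with 1 array. For YAD350 the count was 14, and between 11 and 18 with 1 array left out. For YLK804 it was 10, but 2 with a normexp offset of 0, 3 with the scanner ratios or the series table, 3 with the 2 arrays of 1 slide averaged (a setting chosen after seeing the data), and between 3 and 12 with 1 array left out. For YLK806 against RM11-1a it was 9, but 5 with offset 0 or median centring, 15 with scaled arrays, and between 5 and 11 with 1 array left out. For YLK806 against YLK804 it was 16, and between 14 and 17. For the SAL1 contrast it was 20, but 11 with offset 0, 13 with the scanner ratios or series table, 12 with median centring, and between 15 and 21. Signs turned for FAA2 in YLK804 (0.0177 in the scanner ratios, 0.0175 in the series table), for CTA1 in YLK806 against YLK804 (-0.0231 scaled), and in the SAL1 contrast for POX1 (0.0510 and 0.051) and FAA2 (0.0545 with offset 0, 0.0845 and 0.0843). Scaling moved the split of higher and lower calls to 6 and 9 in YAD350 and 12 and 5 in YLK806 against YLK804, and median centring to 2 and 3 in YLK806 against RM11-1a. The causes were not tested. A slide as a random block could not be fitted. Dim spots limit POX1 and POT1. In the scanner ratios 7 of 24 called differences between the parents, 6 of 14 in YAD350, 3 of 10 in YLK804, 2 of 9 in YLK806 against RM11-1a, 3 of 16 in YLK806 against YLK804 and 8 of 20 in the SAL1 contrast moved by over 1.5 times.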
